A study of Homo sapiens with 12 samples.

Results

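Tumours grown without a TEAD inhibitor in 2 separate experiments were compared with each other: 3 Control libraries and 3 Vehicle libraries, 6 of the 12 in the series, chosen by their labels alone. All are xenografts grown from implanted Cal33 cells, an established line of human squamous cell carcinoma of the head and neck. The Control tumours (DOX-) belong to the experiment in which doxycycline switches on the TEAD inhibitor pTEADi, and received no doxycycline. The Vehicle tumours are the vehicle arm of the experiment that tests SW-682, a small molecule that inhibits TEAD (its treated tumours are labelled smTEADi). The labels give no host strain, promoter or vehicle composition, and do not say whether Control cells carried the construct, whether 1 clone was used or whether the 3 samples of a group were separate animals. Construct, vehicle and batch therefore cannot be told apart, and p-values measure only the spread between these samples, which may be technical.

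Squamous epithelium is built in layers. Basal keratinocytes divide on the basement membrane under the transcription factor p63 and make keratins 5 and 14, and their daughters switch to other keratins and to a cross-linked cornified envelope as they move outward. YAP and TAZ are co-activators that bind DNA through TEAD proteins and, in this tissue, favour the dividing state. The circadian clock, treated here because its genes stood out, is a feedback loop in which CLOCK and BMAL1 activate PER, CRY and REV-ERB genes, whose products repress that activation.

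Totals ran from 13576494 to 14503491 expected counts in the 6 libraries, with 14612 to 14759 genes at 10 counts or above. Libraries of 1 group correlated at r = 0.981 to 0.989 in log2 CPM across genes and libraries of different groups at 0.955 to 0.981. No library repeated another. The first principal component, with 55.8% of the variance, separated the groups, and Vehicle 2 stood apart on the next, with 16.0%. CPM are counts relative to the library total, scaled between libraries by TMM. TPM are levels corrected for the joined length of all annotated exons of a gene. Fold changes are Control over Vehicle on the log2 scale with the SE of the fit. Each adjusted p is from edgeR's quasi-likelihood test with Benjamini-Hochberg adjustment over all genes tested, and the threshold is 0.05.

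Both groups of tumours shared a keratinocyte programme in most of their highest genes. Ranked by TPM among nuclear protein-coding genes, 16 of the 20 highest genes of Control were among the 20 highest of Vehicle, as were 89 of the 100 highest. The 20 genes highest in both groups held 23.4% of protein-coding TPM in Control and 24.9% in Vehicle. Of these, 14 were also among the 20 highest when ranked by CPM. KRT14, the basal keratin, led the list with 32130 ± 3185 TPM in Control and 26820 ± 2880 TPM in Vehicle (SD, n = 3). Its partner KRT5 stood at 19250 ± 2629 TPM and 18690 ± 524 TPM, and KRT6A, a keratin of wound and hyperproliferative epithelium, at 18400 ± 3058 TPM and 20040 ± 3109 TPM. The groups overlapped for KRT5 and KRT6A. Of the 20 genes, 6 passed the test, against 34.5% of all 14716 genes tested.

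**Figure D1:**
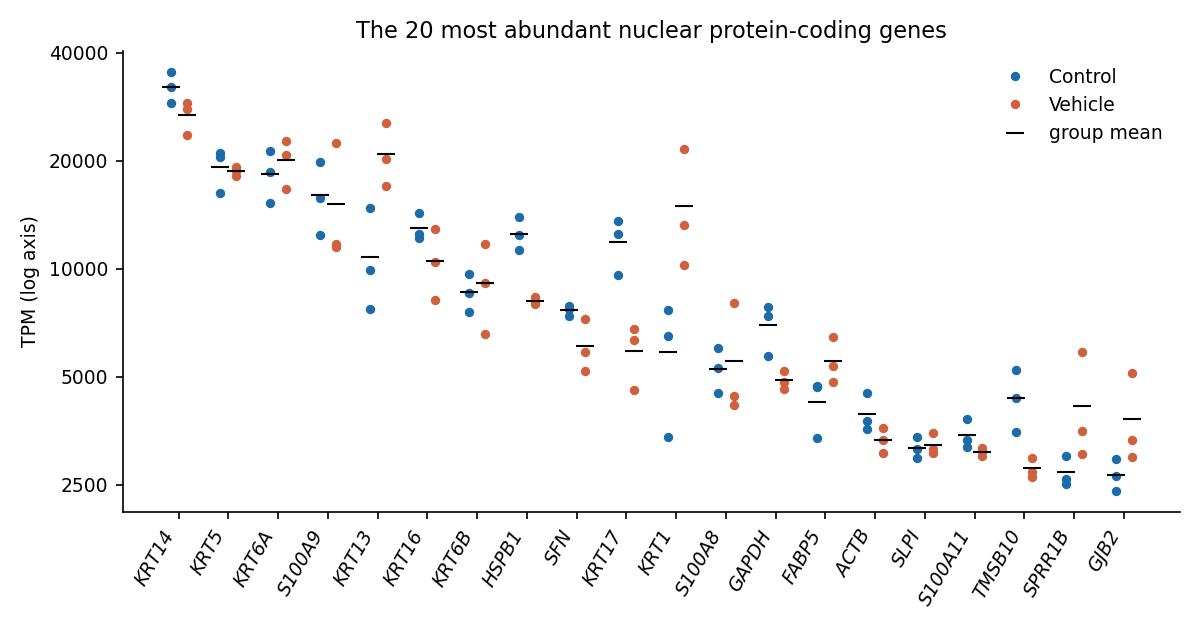
TPM of the 20 protein-coding genes highest in both groups, on a log axis, with 1 point per library (3 Control, 3 Vehicle). The groups overlap for 8 genes, KRT5 and KRT6A among them. By CPM, the groups did not overlap for 49.3% of all genes tested. KRT13 and KRT1 are lower in Control, and KRT17 is higher, with means of 11870 TPM against 5898 TPM in Vehicle.

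The keratins of differentiated layers set the groups apart within this list. KRT13, the main keratin of suprabasal oral mucosa, had 10780 ± 3601 TPM in Control and 20850 ± 4259 TPM in Vehicle (log2 fold change -0.95, adjusted p = 0.0175). KRT1, its counterpart in cornifying epidermis, had 5856 ± 2203 TPM and 14980 ± 5826 TPM (-1.36, adjusted p = 0.0137). KRT17, a stress keratin, went the other way with 11870 ± 2048 TPM in Control and 5898 ± 1147 TPM in Vehicle (1.01, adjusted p = 0.00531). The small heat shock protein HSPB1 (0.63), the glycolytic enzyme GAPDH (0.53) and the actin-binding peptide TMSB10 (0.66) were the other 3 that passed, all higher in Control. With the correction for base composition described next, KRT13 (-1.302, adjusted p = 0.0288) and KRT1 (-1.52, adjusted p = 0.0348) passed and the other 4 did not.

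Across all genes, 2632 were higher in Control (17.9%) and 2442 lower (16.6%) at an adjusted p under 0.05. Most of these differences were small: the median size among called genes was 0.56 on the log2 scale, and 523 of the 5074 reached 1 or more, 257 of them higher and 266 lower. For 10583 genes (71.9%) the whole 95% interval lay within 1 log2 unit of 0, so that a 2-fold difference lay outside it, and this held for 3479 of the called genes (68.6%). Without Control 1, 3064 genes passed, without Vehicle 1, 2692, and without Vehicle 2, 4645. Tested against a 1.5-fold change in place of no change, 4 genes passed. They were the clock gene PER3, lower in Control, and AMH, ABHD16B and the unnamed gene ENSG00000285901, higher in Control.

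The direction of a gene's difference followed its base composition. Across 14681 genes, the fold change had a Spearman correlation of 0.663 with the GC content of the longest transcript and of -0.312 with its length, as a description across genes that share the same 6 libraries. In the lowest of 10 equal bins of genes by GC content (median 36.9%), the median log2 fold change was -0.45, with 5 genes called higher and 751 lower. In the highest bin (64.2%), it was 0.55, with 861 higher and 4 lower. The libraries moved as blocks: genes of the highest bin lay 0.15 to 0.35 above their mean over all 12 libraries in each Control library and 0.17 to 0.38 below it in each Vehicle library. The cause was not tested.

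A correction that removes each library's trend with GC content, chosen after seeing the data, left 1015 genes past the threshold (6.9%), 368 higher (2.5%) and 647 lower (4.4%). Of these, 755 were also called without it, all with the same sign, 4319 were called only without it and 260 only with it. The share of calls that were higher went from 51.9% to 36.3%. The median fold change of all genes tested was -0.01 before and -0.04 after, so lists are read against a centre near 0. The main results that follow are given without and with this correction, since most calls were lost with it. Counts of list members stand against 17.9% higher and 16.6% lower of all genes, and 2.5% and 4.4% with the correction.

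**Figure D2:**
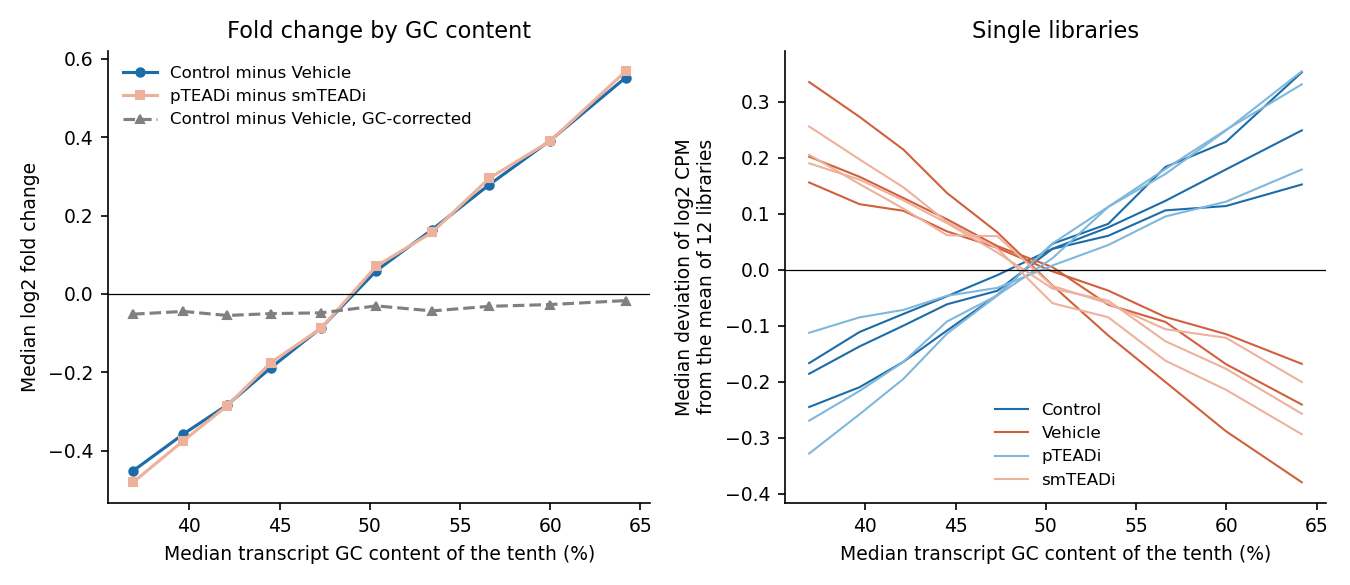
Left, median log2 fold change by bin of GC content (10 bins of equal gene number) for Control over Vehicle, for pTEADi over smTEADi and for Control over Vehicle with the GC correction. Right, median deviation of each of the 12 libraries from the mean by bin; both library groups of the pTEADi experiment rise from left to right, with 0.25, 0.35 and 0.15 in the last bin for Control, and those of the SW-682 experiment fall.

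The 2 experiments also each hold 3 inhibited tumours, which share no library with the comparison above: pTEADi (DOX+) and smTEADi (SW-682). Between these, 5668 of 14787 genes passed (38.3%), 2905 higher in pTEADi (19.6%) and 2763 lower (18.7%). Of the 5036 genes called between Control and Vehicle and tested here, 4907 (97.4%) had the same sign, against 82.2% of all 14367 genes tested in both. A total of 3785 passed in both comparisons, 3775 with the same sign, which is 75.0% of the Control and Vehicle calls and 66.6% of the calls between inhibited tumours. This comparison carries the same trend with GC content (Spearman correlation 0.638 across genes) and adds the difference between inhibitors. With the GC correction 1440 genes passed (9.74%), and 980 of 1009 called genes (97.1%) had the same sign, against 73.8% of all genes. Genes past both thresholds with opposite signs, named after their values were seen, included CES1, CPT1A, DDIT4, ENO2, IER3, LINC03061, SCGB1A1, TTLL7 and ZDHHC11B.

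Genes of the circadian clock were lower in Control. Of 16 tested, 9 were lower and 0 higher, against 16.6% and 17.9% of all genes, and the median on the log2 scale was -0.69. With the GC correction 10 were lower and 1 higher, with a median of -0.90, and PER1 had the smallest adjusted p of that fit. PER3 and TEF shared the next smallest with FHIP1A and ENSG00000285901. Promoter windows, the 250 bases before a start site in RefSeq annotation of GRCh38.p14, matched 16 of the 17 clock genes listed. They are shown for 3 of the genes that differed, only where the window holds an E-box or D-box and overlaps no annotated exon. Clock proteins act through such short elements. Windows without either motif, such as that of RORA, are not shown. Capitals mark the E-box CACGTG, which CLOCK and BMAL1 bind, and the D-box TTATGNAA on either strand, which TEF and DBP bind.
PER3, chr1:7784041-7784290, plus strand: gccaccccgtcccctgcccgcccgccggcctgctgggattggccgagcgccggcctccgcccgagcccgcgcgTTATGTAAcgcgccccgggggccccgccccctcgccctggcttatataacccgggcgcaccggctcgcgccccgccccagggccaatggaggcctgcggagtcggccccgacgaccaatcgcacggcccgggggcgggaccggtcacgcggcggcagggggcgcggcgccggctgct
NR1D2, chr3:23945871-23946120, plus strand: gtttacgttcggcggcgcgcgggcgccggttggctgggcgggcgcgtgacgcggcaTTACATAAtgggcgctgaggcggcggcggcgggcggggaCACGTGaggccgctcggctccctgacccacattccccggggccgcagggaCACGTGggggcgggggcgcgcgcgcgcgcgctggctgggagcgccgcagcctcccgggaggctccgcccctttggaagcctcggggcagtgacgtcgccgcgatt
TEF, chr22:41381692-41381941, plus strand: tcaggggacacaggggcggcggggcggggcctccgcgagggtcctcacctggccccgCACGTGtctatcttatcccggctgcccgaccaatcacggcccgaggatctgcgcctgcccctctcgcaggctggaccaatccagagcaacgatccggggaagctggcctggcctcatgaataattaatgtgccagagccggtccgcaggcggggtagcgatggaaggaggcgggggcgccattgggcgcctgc
The E-box stood in a window of 5 of the 16 genes (PER1, NR1D2, TEF, CIART and BHLHE41) and of 10.9% of 10875 tested genes with a promoter, or 6.34% of all 35116 promoters. The D-box stood in windows of PER1, PER3 and NR1D2 and in 2.23% of tested genes. AGGTCA, the element of RORA and the REV-ERB repressors, stood in windows of PER1 and CRY2 and in 12% of tested genes. The motifs were searched on both strands and do not overlap in the windows shown. A match is a sequence and no evidence of binding in these tumours.

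Among the repressor genes of the loop, PER3 had 18.2, 26.4 and 30.9 CPM in Control and 81.3, 83.7 and 83.4 CPM in Vehicle. The groups did not overlap, as for 49.3% of all genes tested, and the Vehicle libraries lay close together (-1.72 ± 0.16, adjusted p = 0.00225; -1.65, adjusted p = 0.00689 with the GC correction). PER1, which also responds to glucocorticoids, had 54.8, 70.9 and 56.6 CPM against 95.5, 126 and 128 CPM (-0.93 ± 0.14, adjusted p = 0.00248). The difference of PER1 was larger with the GC correction (-1.44, adjusted p = 0.000331). NR1D2, the repressor REV-ERB beta, had 11.9, 16.1 and 18.6 CPM against 52.3, 33.8 and 47.6 CPM, with no overlap (-1.52 ± 0.19, adjusted p = 0.00234). Its relative NR1D1 had 28.7, 71.9 and 32.8 CPM against 72.0, 71.9 and 74.3 CPM: Control 2 sat at the Vehicle level, and the difference did not pass (-0.71, adjusted p = 0.0709), though it did with the GC correction (-1.10, adjusted p = 0.0418).

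The output factors and activators split. TEF, a D-box factor, had 29.8, 41.9 and 41.8 CPM against 68.6, 76.3 and 71.0 CPM, all Control libraries below all Vehicle libraries (-0.93 ± 0.13, adjusted p = 0.00243). RORA, an activator of the loop, had 8.19, 11.01 and 5.47 CPM against 21.1, 36.6 and 20.1 CPM, again without overlap (-1.66). CLOCK itself was lower by a smaller step (-0.75; -0.37, adjusted p = 0.0381 with the GC correction). BMAL1, its partner, had 16.2, 15.3 and 15.8 CPM against 16.7, 10.98 and 11.01 CPM, which overlapped (0.29, adjusted p = 0.238). CRY1 was the 1 member higher with the GC correction (0.66, adjusted p = 0.0340; 0.27 without). Between the inhibited tumours 9 members were lower in pTEADi and 0 higher, with a median of -0.74, including PER3 (-1.48), NR1D2 (-1.44) and PER1 (-1.84). With any 1 library left out, 8 to 10 members passed, 1 of them higher in Control without Control 3, Vehicle 1 or Vehicle 2. The labels give no time of collection.

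Genes induced by glucocorticoids, which share PER1 with the clock, were also mostly lower in Control: 7 of 11 tested were lower and 1 higher, with a median of -0.58 (5 lower, 1 higher and -0.35 with the GC correction). FKBP5, a chaperone of the glucocorticoid receptor, had 24.8, 15.1 and 19.8 CPM against 39.0, 37.7 and 42.5 CPM (-0.998, adjusted p = 0.00277). The exception was MT2A, a metal-binding metallothionein, with 446, 869 and 261 CPM against 151, 158 and 209 CPM (1.61 ± 0.35, adjusted p = 0.00722). Its Control values spread widely but stayed above Vehicle, and without Control 2 the fold change was 1.03 (adjusted p = 0.00837). Without Control 1 or without Vehicle 1, 5 members of the list passed in place of 8.

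Squamous differentiation and cornified envelope genes formed the longest list that lay to one side. Of 40 tested, 20 were lower in Control and 1, the protease KLK5, higher, with a median of -1.02 (13 lower, 0 higher and -1.08 with the GC correction). KRT4, the partner of KRT13 in oral mucosa, had 1503, 2016 and 3194 CPM in Control and 6197, 6526 and 4957 CPM in Vehicle, with no overlap (-1.40 ± 0.25, adjusted p = 0.00346; -1.67 with the GC correction). TMPRSS11D, a membrane serine protease of squamous epithelium, had 43.0, 44.1 and 59.2 CPM against 98.8, 163 and 87.5 CPM (-1.26). DSG1, a desmosomal cadherin of upper layers, had 538, 298 and 792 CPM against 1281, 1979 and 1170 CPM (-1.44 ± 0.31, adjusted p = 0.00731), but missed the threshold with the GC correction (-1.08, adjusted p = 0.0630).

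Several genes of the last layers had large negative fold changes, which were smaller without Vehicle 2. FLG, whose product filaggrin bundles keratin in the cornified layer, had 10.5, 16.9 and 6.12 CPM in Control and 22.99, 335 and 59.2 CPM in Vehicle. Vehicle 2 was far above the other 2 (-3.64 ± 0.85, adjusted p = 0.00978), and without it the fold change was -1.88 (adjusted p = 0.0120). RPTN, a related envelope protein, had 1.58, 1.98 and 2.52 CPM against 7.74, 51.5 and 10.9 CPM (-3.52, and -2.20 without Vehicle 2). DSC1, a desmosomal cadherin, had 4.53, 1.61 and 4.75 CPM against 9.21, 58.0 and 16.1 CPM (-2.93, and -1.79 without Vehicle 2). KRT2, a late epidermal keratin, and KRT3 were also highest in Vehicle 2 (-2.75 and -2.42; -1.55 and -1.90 without it). The calls of LORICRIN, KPRP and FLG2 were lost without Vehicle 2 and also without Control 1 or Control 3, that of KPRP without Control 2 too, and all 3 missed the threshold with the GC correction (adjusted p = 0.0578, 0.0684 and 0.0609). Without Vehicle 2, 12 members of the list passed, 11 lower and 1 higher, and the median was -0.37. Calls numbered 9 without Control 1 and 12 without Control 3. Between inhibited tumours 23 members were lower in pTEADi and 2 higher (median -0.80).

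The factors that define the squamous lineage were expressed in every library, and several were modestly lower in Control. TP63, which encodes p63, had 271, 234 and 316 CPM against 364, 367 and 340 CPM (-0.38, adjusted p = 0.0303), and did not pass with the GC correction (adjusted p = 0.331). EHF, an ETS factor of differentiating epithelium, had 97.4, 91.3 and 96.5 CPM against 192, 202 and 150 CPM (-0.93 ± 0.12, adjusted p = 0.00234; -0.65, adjusted p = 0.0212 with the GC correction). KLF5 (-0.69), ZNF750 (-0.61), GRHL3 (-0.67) and TFAP2C (-0.42) also passed in both fits, BNC1 and GRHL1 only without the correction. SOX15 (0.41) and PITX1 (0.37) were higher without it and had the opposite sign with it (-0.07 and -0.35). Of 20 lineage factors tested, 2 were higher and 8 lower, against 17.9% and 16.6% of all genes. With the correction 0 were higher and 5 lower, against 2.5% and 4.4% of all genes. The widely used marker SOX2 was low, at 22.8 to 41.6 CPM, and did not pass (-0.28, adjusted p = 0.271). Of these factors 10 passed with all libraries, 3 without Control 1, 4 without Control 2, 11 without Control 3, 6 without Vehicle 1 or Vehicle 2 and 8 without Vehicle 3.

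Basal genes were called in either direction about as often as all genes. ITGB4, the hemidesmosome integrin, was higher in Control (0.72; 0.17, adjusted p = 0.334 with the GC correction), and its partner ITGA6 lower (-0.49). The growth factor receptor EGFR had 735, 622 and 656 CPM against 953, 897 and 936 CPM (-0.47, adjusted p = 0.00885; -0.45, adjusted p = 0.0448 with the correction). Of 20 basal genes 4 were higher and 4 lower, against 17.9% and 16.6% of all genes, and 0 and 2 with the correction, which were EGFR and DSG3, a desmosomal cadherin. Without Vehicle 1, 4 of the 20 passed. Of 17 adhesion genes 2 were higher and 6 lower, against the same 17.9% and 16.6%. The tight junction genes CLDN1 (-0.64) and TJP1 (-0.51) passed in both fits, the desmosomal cadherins DSC2 (-0.91) and DSC3 (-0.80) only without the correction.

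Most markers of other cell types were low or absent, and fibroblast markers had the highest sum. Erythroid markers summed to at most 0.366 CPM in a library. Cancer-testis genes, a separate list that marks no cell type here, summed to at most 0.0732 CPM. Of the endothelial markers VWF and ERG made nearly all of the signal, 15.8 to 37.0 CPM, with KDR and EMCN at 0. Macrophage and leukocyte markers summed to 67.9, 83.6 and 58.5 CPM in Control and 46.4, 50.3 and 55.3 CPM in Vehicle, with CD163, TYROBP, LYZ and AIF1 at 0. Of those 12 markers 6 were tested. Of the 6, CD74 (0.72) and CD14 (0.93) were higher in Control without the GC correction, against 17.9% of all genes. Neither passed with it, and 1 of the 2 passed without Control 1 or without Vehicle 1. Fibroblast markers summed to 262 to 315 CPM and 208 to 262 CPM, mostly COL1A1 and COL5A1, with COL3A1, POSTN and THY1 at 0. Muscle markers were uneven within both groups: MYH4 had 0, 0 and 17.4 CPM in Control and 7.95, 0.506 and 13.9 CPM in Vehicle, with CKM and DES at 0. Reads were mapped to the human genome, and how much mouse host RNA adds to these values was not tested. In bulk tumours, fewer cells of a type and less RNA per cell cannot be told apart.

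Cytokine and chemokine genes driven by NF-kB were higher in Control. Of 12 tested, 7 were higher and 0 lower, with a median of 1.48 (4, 0 and 1.26 with the GC correction). IL1B, an inflammatory cytokine, had 17.5, 38.5 and 10.9 CPM against 6.40, 4.70 and 5.89 CPM: the Control libraries lay apart from each other but all above Vehicle (1.97 ± 0.39, adjusted p = 0.00526). CCL5, which recruits T cells, had 57.7, 105 and 46.0 CPM against 31.1, 22.3 and 30.9 CPM (1.31 ± 0.27, adjusted p = 0.00585). The neutrophil chemokine CXCL1 was barely expressed, with 6.32, 10.8 and 2.52 CPM against 1.20, 1.08 and 1.96 CPM (2.20). Control 2 was the highest library for all 3 genes. Without Control 2 the list kept 4 calls and a median of 0.91, and without Vehicle 1, 2 or 3 in turn it had 3, 4 and 4 calls. Between the inhibited tumours the list lay the other way, with 0 higher and 3 lower and a median of -0.30. For IL1B that fold change was -0.05 (adjusted p = 0.919), and the test of the difference between the 2 comparisons did not pass (adjusted p = 0.503; of all genes in that test 0.0129% passed).

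The 12 protein-coding genes with the largest positive and the 12 with the largest negative fold changes, among those of at least 5 CPM without overlap, all kept their calls with any 1 library left out. They were picked as called, large and without overlap in these same libraries, which favours keeping a call. Of all 5074 calls, 2654 (without Vehicle 1) to 4393 (without Control 3) were kept. With the GC correction 10 of the higher and 12 of the lower genes kept their calls, against 755 of all 5074 calls. Highest was KREMEN2, a receptor for the WNT antagonist DKK1, with 9.20, 16.2 and 8.35 CPM against 2.67, 2.10 and 3.44 CPM (2.03 ± 0.30, adjusted p = 0.00243; 1.29 with the GC correction). ABHD16B had 14.2, 15.3 and 15.3 CPM against 3.02, 4.63 and 3.79 CPM, with tight groups (1.97 ± 0.18). Between the inhibited tumours ABHD16B (2.69), KREMEN2 (1.29) and L1CAM (1.24) also passed, ABHD16B alone of the 3 with the GC correction, whereas FN1 (-0.09, adjusted p = 0.858), STC2 (-0.63, adjusted p = 0.217) and LAMA1 (0.61, adjusted p = 0.164) did not. FN1, the matrix protein fibronectin, had 16.6, 43.0 and 42.8 CPM against 6.26, 9.03 and 13.5 CPM (1.83 ± 0.36, adjusted p = 0.00500). LAMA1, a basement membrane laminin, had 17.6, 17.0 and 10.6 CPM against 3.73, 3.97 and 7.86 CPM (1.54), and L1CAM, a neural adhesion molecule also found at invasive fronts, 12.3, 19.8 and 17.1 CPM against 3.31, 6.22 and 6.81 CPM (1.59). The rest were IL1B, STC2 (1.85), MT2A, STMN3 (1.71), SEMA3B (1.52) and, lost with the GC correction, B4GALNT4 (adjusted p = 0.0597) and LRRC24 (adjusted p = 0.110).

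Besides FLG, RPTN, DSC1, KRT2 and KRT3, the lower genes were GABRP, PLA2G4D, ADH7, ALDH1A1, CD36, PPARGC1A and SCGB1A1. ADH7, an alcohol and retinol dehydrogenase of upper digestive epithelium, had 34.2, 18.1 and 44.4 CPM against 131, 142 and 99.3 CPM (-1.94 ± 0.26, adjusted p = 0.00234). ALDH1A1, which makes retinoic acid, had 24.5, 19.1 and 40.5 CPM against 142, 76.2 and 99.5 CPM (-1.92), and CD36, a fatty acid transporter, 10.8, 8.59 and 15.2 CPM against 45.2, 56.3 and 29.5 CPM (-1.92). PPARGC1A, a co-activator of mitochondrial genes, had 2.95, 3.01 and 3.74 CPM against 16.8, 8.31 and 10.4 CPM (-1.87; -2.09 between inhibited tumours). PLA2G4D, an epidermal phospholipase, had a fold change of -2.52, and of -1.33 without Vehicle 2. GABRP and the secretoglobin SCGB1A1 shared a different pattern in Vehicle: GABRP had 61.7, 10.2 and 53.3 CPM and SCGB1A1 70.7, 18.4 and 66.9 CPM, with Vehicle 2 low in both, against 4.53 to 8.20 CPM and 15.0 to 15.9 CPM in Control. SCGB1A1 was higher in pTEADi than in smTEADi tumours (1.11, adjusted p = 0.000436), opposite to its direction here.

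Among TEAD and its co-activators, YAP1 and TEAD4 passed the test only without the GC correction, and TEAD3 only with it. YAP1 had 122, 127 and 136 CPM in Control and 178, 181 and 172 CPM in Vehicle (-0.46 ± 0.09, adjusted p = 0.00405; -0.29, adjusted p = 0.0587 with the GC correction). WWTR1, which encodes TAZ, had 64.3, 74.8 and 64.1 CPM against 65.4, 66.0 and 84.8 CPM, which overlapped (-0.09, adjusted p = 0.594). TEAD4 had 18.9, 20.04 and 13.2 CPM against 10.3, 8.82 and 11.9 CPM (0.75, adjusted p = 0.0137; 0.31, adjusted p = 0.291 with the correction). TEAD1 (-0.17), TEAD2 (0.23) and TEAD3 (0.03) did not pass, though TEAD3 did with the correction (-0.38, adjusted p = 0.0415). Of 22 YAP/TAZ target genes, 6 were higher and 3 lower, with a median of 0.20, against 17.9% and 16.6% of all genes. With the correction 1 was higher and 1 lower, with a median of 0.01, against 2.5% and 4.4% of all genes. The matricellular target CCN1 had 65.2, 83.1 and 48.0 CPM against 41.0, 34.2 and 35.1 CPM, with no overlap (0.83; 0.85, adjusted p = 0.0290 with the correction). CRIM1 was lower in both fits (-0.44 and -0.43), while AMOTL2 (0.61), FJX1 (0.54) and ARHGEF17 (0.53) passed only without the correction. Without Control 2 the list's median was -0.04, and 5 members passed without Control 1, Control 2 or Vehicle 3. Of 22 Hippo components, set against the same shares, 2 were higher and 8 lower. With the correction 0 were higher and 2 lower, which were TEAD3 and the kinase gene TAOK1 (-0.78 without the correction). Without Vehicle 1, 6 components passed, all lower.

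Metabolic and stress lists had smaller medians than the clock, differentiation and cytokine lists. Of 17 glycolysis genes 9 were higher in Control and 0 lower (median 0.44), and 1 and 0 with the correction (0.235). Of 30 nuclear oxidative phosphorylation genes 9 were higher and 1 lower (median 0.13). With the correction 10 were higher and 0 lower (0.22), against 2.5% and 4.4% of all genes. Without Control 1, 4 glycolysis and 6 oxidative phosphorylation genes passed. Of 21 NRF2 target genes, the antioxidant programme, 9 were lower and 1 higher (median -0.41), and 7 and 0 with the correction (-0.42). AKR1B10, an aldo-keto reductase, had 66.2, 41.0 and 73.5 CPM against 173, 200 and 156 CPM, with no overlap (-1.55 ± 0.19, adjusted p = 0.00234; -1.53 with the correction). Without Control 1, 6 members of the list passed. Cytosolic ribosomal protein genes were higher in Control in 19 of 32 tested and lower in 0 (median 0.41), and in 11 with the correction (0.38). Without Control 1, 11 passed, and without Vehicle 1, 10. Mitochondrially encoded genes were lower in 11 of 15 and in 4 with the correction, among them MT-ATP8 (-1.61) and MT-ND4L (-0.99); without Control 1, Control 2, Vehicle 1 or Vehicle 3, 6 passed. Their share of all counts was 3.64% to 4.50% in Control and 4.95% to 5.99% in Vehicle. The part of that share in these results was not tested.

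Of 36 G2/M genes 8 were higher in Control, a share near the 17.9% of all genes, and 0 lower, against 16.6% of all genes (median 0.22). With the correction 3 were higher, above the 2.5% of all genes, and 0 lower, against 4.4% (median 0.42). AURKB, a mitotic kinase, had 45.3, 51.0 and 47.0 CPM against 25.2, 21.8 and 30.03 CPM (0.89 ± 0.12, adjusted p = 0.00240; 0.61, adjusted p = 0.0324 with the correction). Without Vehicle 2, 7 members were higher and 3 lower and the median was 0.08. Of 30 S phase genes 10 were higher, and 0 with the correction, although the list's median was 0.32 with it and 0.33 without. Without Control 1, 4 passed, and without Vehicle 1, 6. Of 23 MYC and ribosome biogenesis genes 11 were higher and 1 lower, and 3 and 0 with the correction, TCOF1 (0.83) and FBL (0.76) among them. Partial EMT genes, a set of carcinoma cells at the invasive front, had 11 higher and 3 lower of 24 (median 0.30), and 4 and 2 with the correction (0.31). Without Control 1, Control 2 or Vehicle 1, 7, 8 and 7 passed. The galectin LGALS1 had 580, 665 and 445 CPM against 225, 296 and 297 CPM (1.05; 0.61 with the correction), whereas SEMA3C (-0.96) and the collagenase MMP13 (-1.43) were lower.

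**Figure D3:**
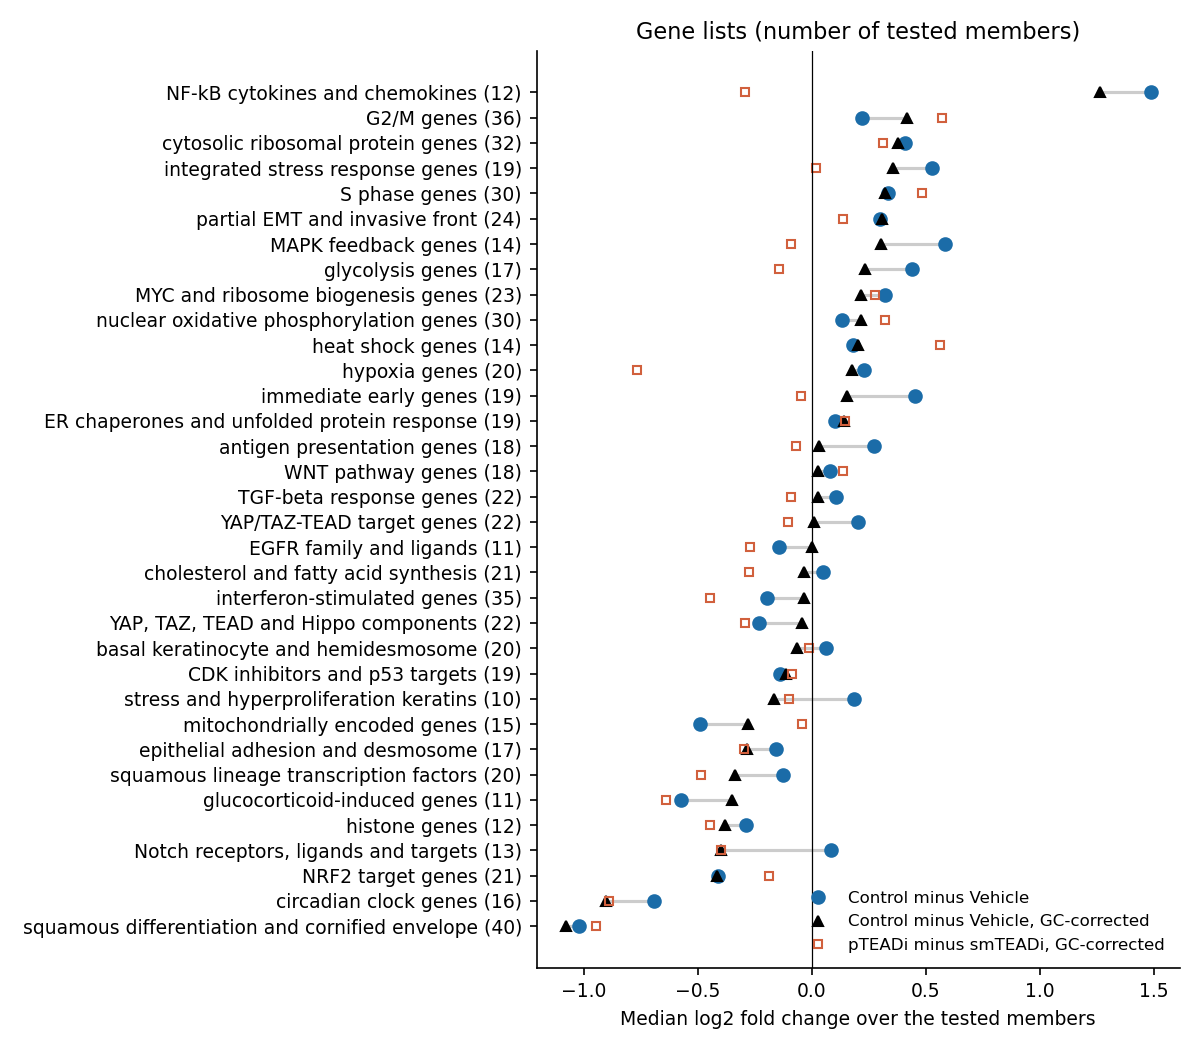
Median log2 fold change of the gene lists with at least 10 tested members: Control over Vehicle, the same with the GC correction, and pTEADi over smTEADi with the GC correction. NF-kB cytokines lie highest in Control over Vehicle (1.48) and differentiation genes lowest (-1.02), with clock genes next (-0.69).

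Signalling lists differed at the level of single members. Of 14 MAPK feedback genes 6 were higher and 1 lower, against 17.9% and 16.6% of all genes. With the correction 2 were higher and 1 lower, against 2.5% and 4.4% of all genes. The higher genes were PHLDA1 (0.99, and 1.18 with the correction) and DUSP6, an ERK phosphatase (0.99 and 1.07). The lower gene was the receptor EPHA4 (-0.85 and -0.73). Without Vehicle 1, 3 passed. Of 19 integrated stress response genes 8 were higher and 2 lower, and 4 and 1 with the correction. CHAC1, a glutathione-degrading enzyme of that response, had 5.82, 8.59 and 5.75 CPM against 1.76, 1.88 and 2.31 CPM (1.75; 1.296 with the correction). Of 20 hypoxia genes 4 were higher and 2 lower, which is near or under the shares of all genes (17.9% and 16.6%). With the correction 3 were higher, above the 2.5% of all genes, and 0 lower, against 4.4%. Between the inhibited tumours 0 hypoxia genes were higher and 11 lower (median -0.91). The carbonic anhydrase CA9 had 93.7, 105 and 67.1 CPM against 36.2, 52.7 and 42.4 CPM (1.02; 0.61 with the correction). Without Vehicle 1, 3 hypoxia genes passed. Of 35 interferon-stimulated genes 6 were higher, near the 17.9% of all genes, and 11 lower, against 16.6%. With the correction 0 were higher, against 2.5% of all genes, and 5 lower, above the 4.4%. ISG15 had 321, 470 and 233 CPM against 140, 114 and 160 CPM (1.304) but missed the threshold with the correction (0.74, adjusted p = 0.0552), and MX2 was lower in both fits (-0.66 and -0.68). The nuclear RNA MALAT1 had 393, 246 and 425 CPM against 804, 908 and 612 CPM (-1.13; -0.90, adjusted p = 0.0319 with the correction).

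Genes were also grouped by chromosome, as a description of expression that does not measure copy number. Median fold changes ran from -0.40 for chromosome 4 (500 genes, 47.8% called) to 0.41 for chromosome 19 (974 genes, 51.0% called). Of all genes 34.5% were called. Across 23 chromosomes the medians followed median GC content (Spearman correlation 0.916). With the GC correction chromosome 19 stood at 0.02 and chromosome 4 remained lowest at -0.23. On chromosome 4, 71 genes were then called lower and 7 higher, against 4.4% and 2.5% of all genes. Without the correction, the median deviation of chromosome 4 genes from their mean over all 12 libraries was -0.19, -0.21 and -0.16 in Control and 0.25, 0.16 and 0.17 in Vehicle. On the same uncorrected scale the inhibited tumours gave -0.26, -0.21 and -0.11 and 0.19, 0.21 and 0.19. In windows of 20 Mb with at least 20 genes, all 10 windows of chromosome 4 were negative, from -0.374 to -0.115. Of the 154 windows in the genome, 24 lay elsewhere at or under the highest of these. All windows of chromosomes 6, 9, 10, 13 and 21 were negative too. The median of all genes tested was -0.04 with the GC correction. The highest window, 0.31, was on chromosome 8 from 20 to 40 Mb (98 genes), with 11 genes called higher and 0 lower and a value of 0.20 between the inhibited tumours.

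**Figure D4:**
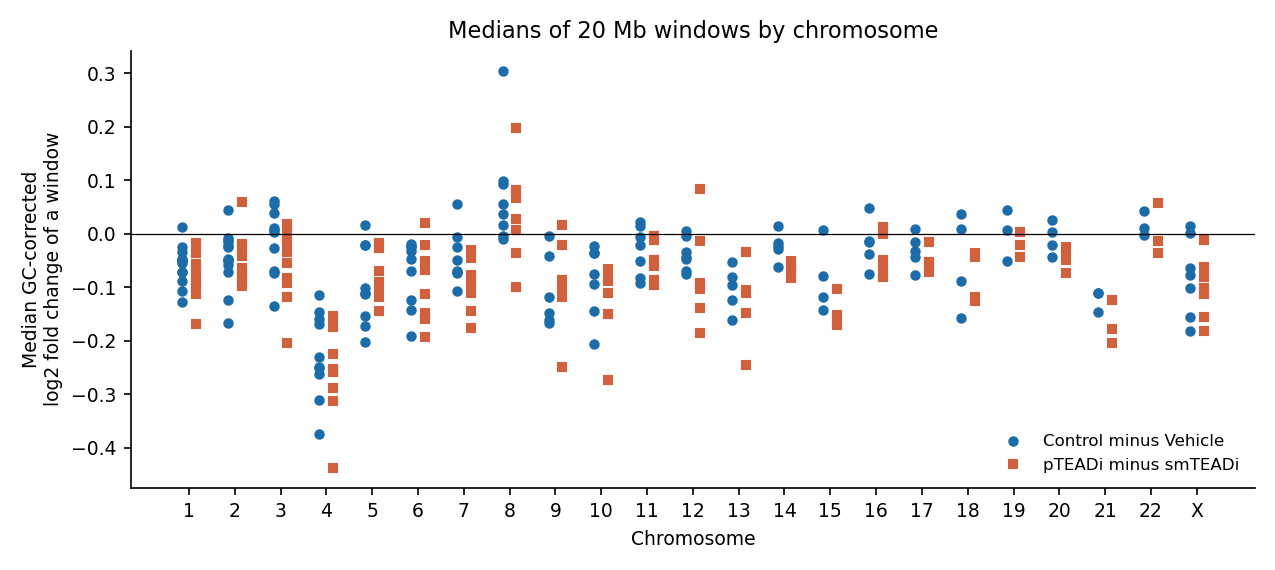
Median GC-corrected log2 fold change of 20 Mb windows by chromosome, for Control over Vehicle and for pTEADi over smTEADi, 1 point per window. All 10 windows of chromosome 4 lie below 0 in both comparisons, from -0.374 to -0.115 in the first. So do all windows of chromosomes 10, 13 and 21.

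Few genes were present in one group and absent in the other. By a floor of 3 counts in each library of one group and at least 10 in each of the other, 5 genes qualified, 3 present in Control and 2 in Vehicle. With 1 library left out, 6 to 14 qualified. NFE2, a factor of blood cell lineages, had 10, 15 and 12 counts in Control and 1, 2 and 2 in Vehicle, at least 4.14-fold higher in Control. MUC21, a surface mucin of squamous mucosa, had 0, 3 and 2 counts in Control and 16, 25 and 48 in Vehicle, at least 9.82-fold lower in Control. It was not absent in pTEADi libraries, with 10, 22 and 22 counts, against 202, 47 and 45 in smTEADi libraries. The largest bound, at least 25.1-fold, was for ENSG00000269242, and the next, at least 18.7-fold, for ENSG00000285901. The last had 9.34, 21.8 and 0 counts in pTEADi and 0, 59.5 and 0 in smTEADi libraries, so it did not follow the experiment, and RSEM's splitting of shared reads can shift such unnamed models. The non-coding ENSG00000231683 was the other gene absent in Control.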

How the data were processed

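Messenger RNA of 12 xenograft tumours was captured on poly-T beads and read as pairs of 150 bp. According to the design text and the submitters' processing notes, reads were mapped to GRCh38 with STAR 2.7.9a and Gencode 38, and RSEM 1.3.1 estimated gene-level counts. What the authors deposited is an expected count per gene with no scaling, and between 6.80% and 7.27% of a library's values had decimals. Strand setting and treatment of mouse host reads are not given in the sources used here, so paralogs and overlapping genes are uncertain. The tables of the 2 experiments were joined on 60649 gene IDs, 60463 of which had a symbol in Gencode 44.

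Counts were rounded and tested with edgeR 4.0.16 (filterByExpr minimum count of 10, TMM, quasi-likelihood F test, two-sided) over the 6 libraries. The GC correction subtracts a lowess trend (span 0.3) of each library's log2 CPM on GC content, as an offset; 99.8% of tested genes had a GC value. It and the test of the difference between comparisons (1 fit of 12 libraries) were chosen after seeing the data. The tests were also run on simulated counts that carried no trend with GC content. Such a run cannot show how they behave under the trend seen here. Members and gene lists were chosen with earlier results of these data known. Named genes were the 12 per direction with the largest fold change among called protein-coding genes of at least 5 CPM without overlap, up to 4 members per list with the smallest p, the 20 highest genes, all lineage factors and YAP, TAZ and TEAD genes, and the 5 with the widest range per group; others were named after their values were seen. Lists carry no test of their own, only counts and medians.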

Additional observations from a re-analysis of the deposited data

Results flagged for a closer look

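For 2 of 15460 genes (0.0129%), the difference between experiments in uninhibited tumours differed past the threshold from that in inhibited tumours. The test was edgeR's quasi-likelihood test of the interaction term in 1 fit of all 12 libraries (Benjamini-Hochberg adjusted p under 0.05). This contrast includes the difference between the 2 inhibitors. SCGB1A1, with opposite signs in the 2 comparisons, did not pass it (adjusted p = 0.088). CEMIP, which takes part in breaking down hyaluronan, had 12.8, 15.2 and 14.4 CPM in Control and 12.7, 15.2 and 14.8 CPM in Vehicle, with no difference between them past the threshold (-0.01, adjusted p = 0.979). In the inhibited tumours it had 34.0, 36.0 and 37.6 CPM with pTEADi and 17.2, 13.4 and 12.4 CPM with SW-682 (1.33, adjusted p = 0.00037). The difference of these log2 fold changes, Control over Vehicle minus pTEADi over smTEADi, was -1.333 ± 0.190 (adjusted p = 0.0451).

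CPT1A, the carrier enzyme that brings fatty acids into mitochondria for oxidation, was lower in Control than in Vehicle, with 14.4, 18.2 and 14.5 CPM against 26.1, 23.9 and 26.6 CPM (-0.70, adjusted p = 0.00418). Between the inhibited tumours it lay the other way, with 20.04, 21.8 and 22.9 CPM for pTEADi against 14.0, 12.2 and 15.4 CPM for SW-682 (0.65, adjusted p = 0.00406). Neither pair of groups overlapped, and the difference was -1.339 ± 0.181 (adjusted p = 0.0451). All CPM here are scaled over the 12 libraries.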

How the results depend on the processing

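The count of genes past the threshold between Control and Vehicle was 5074. It was 2262 at an adjusted p of 0.01, 4 against a 1.5-fold change, 1015 with the GC correction and 796 with a correction for GC and length, and 2692 to 4977 with 1 library left out. For pTEADi and smTEADi it went from 5668 to 3220, 182, 1440 and 1228 in the same order, and to 3489 to 6022. RLE and upper-quartile scaling, 2 other filters, unrounded counts, protein-coding genes alone, DESeq2, limma-voom and a spread shared by all 12 libraries gave 4853 to 5428 for Control and Vehicle. Genes at the floor numbered 2 with a floor of 1 count, 1 with at least 30 counts in the other group, and 6 to 14 with 1 library left out. The medians of chromosomes 4 and 19 were -0.23 and 0.0192 with the GC correction. Of all 5074 calls, 755 were also called with the same sign with the GC correction and 555 with GC and length. With 1 library left out it was 2654 to 4393. Of 176 called genes among those named by rule, 76 kept their call with the GC correction and 62 with GC and length. With 1 library left out 146 to 168 of the 176 did. Many of the 176 were named for a small p or large fold change in these same libraries, which favours keeping a call. With the GC correction the sign turned for COL1A1 (-0.0334), FJX1 (-0.0176), LFNG (-0.12), PFKL (-0.0860), PITX1 (-0.35) and SOX15 (-0.0732). With GC and length it turned for AHR (0.000641), FJX1 (-0.0818), HLA-C (-0.0875), HSPB1 (-0.0223), LFNG (-0.18), PFKL (-0.0299), PITX1 (-0.42) and SOX15 (-0.19). The causes were not tested. Of 39 gene lists, 33 kept the sign of their median under either correction.

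Replicate numbers did not pair the libraries: deviations of Control and Vehicle libraries with the same number correlated at 0.0553, 0.0755 and -0.0779. With the replicate block 4419 genes passed between Control and Vehicle and 4431 between pTEADi and smTEADi. At 13576494 to 14503491 counts per library, genes of few CPM, such as CXCL1 (1.08 CPM in Vehicle 2), rest on few reads.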
